A study of Mus musculus with 18 samples.

Results

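RNA sequencing was used to compare PCBP2 knockdown with PCBP1 knockdown in mouse fetal liver erythroid cells after 2 days of differentiation. The comparison takes in 6 of the 18 libraries of the series, chosen by their labels: the 3 Day 2 libraries with hairpins 1, 3 and 4 against Pcbp2, and the 3 Day 2 libraries with hairpins 1, 3 and 4 against Pcbp1. Hematopoietic progenitors were enriched from the livers of E14.5 CD-1 embryos and infected with MSCV-PIG retroviruses that carry a short hairpin RNA. They were grown for 48 hours in expansion medium, which ends at Day 0, and then for 2 days in differentiation medium with erythropoietin, which ends at Day 2. Control cells of the same strain, age and culture carried a luciferase hairpin (LUC-1) or scrambled hairpins (SCR-1, SCR-2). Their 3 Day 2 libraries enter no test between the knockdowns and are given beside the values. Within each knockdown the 3 libraries carry different hairpins, and the labels do not say that they came from separate cultures, so a p-value measures only the spread between these libraries.

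PCBP1 and PCBP2 are closely related KH-domain proteins that bind runs of C in RNA. In the nucleus they act on splice site choice, and in the cytoplasm they act on the stability and translation of mRNAs, among them alpha-globin mRNA. Both also bind iron and deliver it to ferritin. Erythroid precursors accumulate globin mRNA, make heme, remodel their membrane skeleton and leave the cell cycle as they mature.

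Between 27033440 and 29872250 estimated reads were assigned to transcripts in the PCBP2 knockdown libraries, between 28233193 and 29535905 in the PCBP1 knockdown libraries and between 34331121 and 38006881 in the controls. The erythroid label was checked against globin transcripts, which took between 25.9% and 28.6% of the reads with PCBP2 knockdown, between 24.7% and 26.6% with PCBP1 knockdown and between 27.6% and 33.5% in the controls. No hepatocyte marker of the 9 listed passed the expression filter, and their summed level was at most 0.328 CPM (reads scaled to the library's normalised total) with PCBP2 knockdown, 0.578 CPM with PCBP1 knockdown and 0.558 CPM in the controls. Over the 6 knockdown libraries, the first principal component held 46.5% of the variance and placed the PCBP2 hairpins 1, 3 and 4 at 18.7, 13.1 and 24.6 and the PCBP1 hairpins at -29.9, -6.75 and -19.8. The PCBP1 hairpin 3 library lay nearest to the other group.

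Each set of hairpins was first checked against its own target. Pcbp2 (chr15:102470539-102500061, GRCm38, plus strand) stood at 39.4, 37.0 and 48.0 CPM with PCBP2 hairpins 1, 3 and 4, against 181, 215 and 193 CPM with PCBP1 hairpins 1, 3 and 4 and 229, 225 and 247 CPM in the controls. It was lower by a log2 fold change of -2.23 (SE 0.14, edgeR adjusted p = 5.53e-08), and the groups did not overlap. Pcbp1 (chr6:86524492-86526321, minus strand), an intronless relative, stood at 239, 214 and 250 CPM with the PCBP2 hairpins, against 15.6, 57.2 and 40.4 CPM with the PCBP1 hairpins and 241, 281 and 283 CPM in the controls. All 3 PCBP1 hairpin libraries were far below the other 6, with a more than 3-fold spread among them: hairpin 1 left the least Pcbp1 and hairpin 3 the most. The log2 fold change was 2.65 (SE 0.51), and with this spread it did not pass the threshold of 0.05 (edgeR adjusted p = 0.0579). It passed without PCBP1 hairpin 1 (log2 2.27, edgeR adjusted p = 1.3e-07) and without PCBP1 hairpin 3 (log2 3.08, adjusted p = 0.026). Of the relatives, Hnrnpk, which codes for hnRNP K, was at 566, 586 and 581 CPM with PCBP2 knockdown and at 478, 530 and 490 CPM with PCBP1 knockdown and was not called (log2 0.22, edgeR adjusted p = 0.253). Pcbp3 was not called either (log2 -0.74, edgeR adjusted p = 0.261), at 0.491 to 1.10 CPM with PCBP2 knockdown and 0.907 to 1.73 CPM with PCBP1 knockdown. Pcbp4 was at or under 0.191 CPM in the 6 libraries and was not tested.

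**Figure D1:**
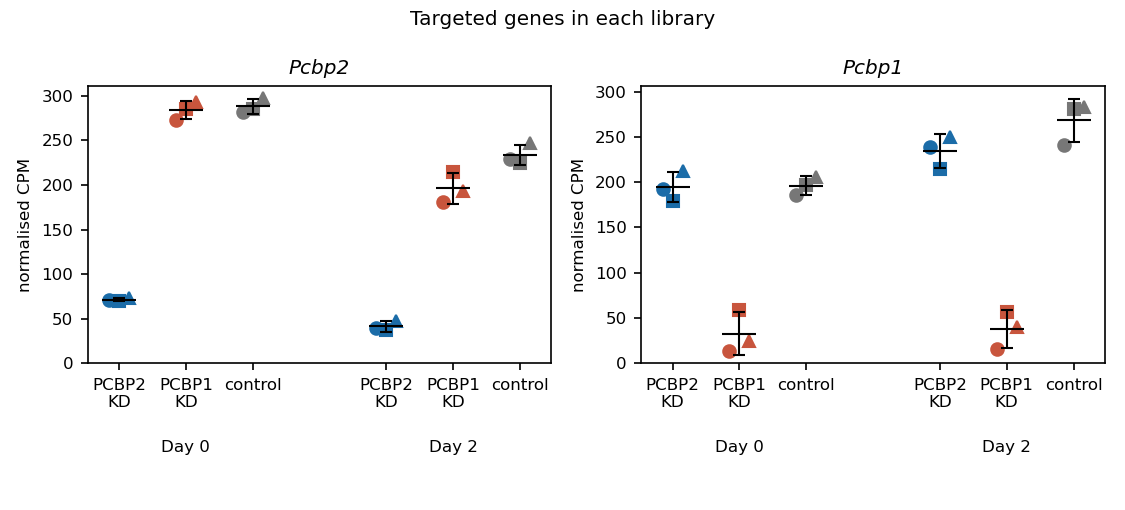
Normalised CPM of Pcbp2 (left) and Pcbp1 (right) in each library at Day 0 and Day 2, with circles, squares and triangles for hairpins 1, 3 and 4, or for the controls in the order SCR-1, SCR-2, LUC-1. Bars give the mean and the SD over 3 libraries; each target is low in its own hairpin set and PCBP1 hairpin 3 leaves the most Pcbp1, 57.2 CPM at Day 2.

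Of 14681 genes tested across the 6 libraries, 534 (3.64%) were higher and 511 (3.48%) lower with PCBP2 knockdown than with PCBP1 knockdown, 7.12% in all (edgeR quasi-likelihood test, Benjamini-Hochberg adjusted p under 0.05, which is what "called", "rose" and "fell" mean here). The changes were moderate in size. The genes called higher had a median log2 fold change of 0.73, and those called lower a median decrease of 0.69 log2 units. The values of the 2 knockdowns did not overlap for 28.2% of all genes tested, and 3468 genes had an unadjusted p under 0.05. The counts depended on single libraries. Without PCBP2 hairpin 1, 3 or 4, 141, 341 and 150 genes were higher and 137, 293 and 107 lower. Without PCBP1 hairpin 1 or 4, 230 and 156 were higher and 260 and 188 lower, while leaving out PCBP1 hairpin 3 raised the counts to 839 higher and 976 lower, with 487 of the 534 and 468 of the 511 among them. Scaling to library totals shifted the median of all genes by -0.05 log2 and changed the split to 430 higher and 675 lower (38.9% higher, against 51.1% here). Of the 76 called genes that the naming rule picked, 42 stayed called whichever library was left out, and all kept their direction.

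The genes most raised with PCBP2 knockdown relative to PCBP1 knockdown came from several functional classes. Slc35f5 (chr1:125560595-125595820, plus strand), of a family of nucleotide sugar transporters, was at 22.5, 11.9 and 16.4 CPM with PCBP2 hairpins 1, 3 and 4, against 5.18, 6.69 and 5.36 CPM with the PCBP1 hairpins and 7.81 to 11.7 CPM in the controls (log2 1.57, SE 0.22, edgeR adjusted p = 0.000993). All 3 PCBP2 libraries were thus also above the controls. The noncoding transcript A930006K02Rik (chr16:91465025-91470128, plus strand) was at 74.2, 59.6 and 79.1 CPM with PCBP2 knockdown, against 28.6, 24.2 and 24.3 CPM with PCBP1 knockdown and 62.8 to 105 CPM in the controls (log2 1.48, SE 0.15, edgeR adjusted p = 3.2e-05). Here the PCBP1 libraries were the ones that stood away from the controls. Dcbld2, which codes for a neuropilin-like transmembrane protein, was at 31.0, 28.1 and 23.9 CPM, against 12.5, 11.9 and 13.1 CPM with PCBP1 knockdown and 16.6 to 20.0 CPM in the controls (log2 1.16, SE 0.15, edgeR adjusted p = 0.00043). It was above every control with PCBP2 knockdown and below every control with PCBP1 knockdown.

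Further genes of this class were Twsg1, whose secreted product binds bone morphogenetic proteins (130, 91.3 and 92.8 CPM, against 30.6, 51.1 and 48.3 CPM with PCBP1 knockdown; log2 1.29, edgeR adjusted p = 0.00337), and the imprinted noncoding RNA Meg3 (10.2, 10.7 and 13.4 CPM, against 3.95, 5.73 and 3.94 CPM; log2 1.35, adjusted p = 0.00117). Got1, the cytosolic aspartate aminotransferase of the malate-aspartate shuttle, was at 19.9, 25.4 and 25.3 CPM, against 8.01, 10.8 and 10.9 CPM with PCBP1 knockdown and 19.5 to 26.3 CPM in the controls. Its PCBP2 libraries lay inside the control range and its PCBP1 libraries below it (log2 1.26, edgeR adjusted p = 0.000524). Kdr, a receptor for vascular endothelial growth factor, rose by a log2 of 1.21, the membrane protein genes Tmem184b and Tspan31 by 1.21 and 1.15. Id1, an inhibitor of basic helix-loop-helix factors, had a log2 fold change of 1.21 (edgeR adjusted p = 0.0201) that was no longer called without PCBP1 hairpin 4 (0.0925), PCBP2 hairpin 1 (0.0794) or PCBP2 hairpin 4 (0.0969). The remaining genes among the 15 most raised were Chac1 and Atf3, described with the stress genes, and 3 histone genes. Those were Hist1h2bg (log2 1.42), Hist1h2ac (1.37) and Hist1h2ae (1.12), members of a family of near-identical copies among which reads may be divided.

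The genes most lowered with PCBP2 knockdown relative to PCBP1 knockdown included, besides Pcbp2 itself, Aldh1a1 (chr19:20492715-20643465, plus strand), which codes for a retinaldehyde dehydrogenase. It was at 12.3, 12.3 and 9.12 CPM with PCBP2 hairpins 1, 3 and 4, against 59.0, 34.4 and 39.3 CPM with the PCBP1 hairpins and 14.6, 12 and 6.98 CPM in the controls (log2 -1.97, SE 0.20, edgeR adjusted p = 0.000106). The PCBP2 libraries lay inside the control range and all 3 PCBP1 libraries above it. Reps2, an adaptor of receptor endocytosis, was at 6.29, 7.73 and 6.93 CPM, against 20.4, 20.4 and 39.9 CPM with PCBP1 knockdown and 5.78 to 7.31 CPM in the controls (log2 -1.93, SE 0.26, edgeR adjusted p = 0.00264). Abca8b, an ABC transporter gene, was at 19.2, 25.5 and 18.7 CPM, against 40.1, 59.7 and 66.3 CPM with PCBP1 knockdown and 12.6 to 21.6 CPM in the controls, so that all 3 PCBP1 libraries were again above the controls (log2 -1.38, edgeR adjusted p = 0.000993).

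In Foxp1, Pebp1 and Gstt1 both knockdowns left the control range, in opposite directions. Foxp1, a forkhead transcription factor gene, was at 13.0, 12.4 and 7.64 CPM with PCBP2 knockdown, against 41.7, 29.2 and 28.3 CPM with PCBP1 knockdown and 25.5, 16.7 and 17.2 CPM in the controls (log2 -1.58, SE 0.21, edgeR adjusted p = 0.000993). Pebp1 (chr5:117282654-117287625, minus strand), which codes for the Raf kinase inhibitor protein, was at 54.4, 49.5 and 52.6 CPM, against 133, 135 and 149 CPM with PCBP1 knockdown and 88.1, 98.4 and 62.1 CPM in the controls (log2 -1.40, SE 0.13, edgeR adjusted p = 1.01e-05). For both genes every PCBP2 library was below every control and every PCBP1 library above every control. Gstt1, a glutathione S-transferase gene, followed the same order with 14.4, 10.4 and 10.0 CPM, 31.7, 30.7 and 26.1 CPM, and 22.7, 18.8 and 23.1 CPM with PCBP2 knockdown, PCBP1 knockdown and in the controls (log2 -1.34, edgeR adjusted p = 0.000245). Grap2, an adaptor of hematopoietic cell signalling, was at 302, 281 and 302 CPM, against 930, 577 and 833 CPM with PCBP1 knockdown and 365 to 534 CPM in the controls (log2 -1.39, edgeR adjusted p = 0.000106). Aldoc, an aldolase of glycolysis, was lower by -1.60, the dynein-associated gene Wdr78 by -1.44, the G protein gamma subunit gene Gngt2 by -1.31, the sulfotransferase gene Sult5a1 by -1.28 and Tspoap1 by -1.25. These 5 genes stayed called whichever library was left out. Trdc and Il7r, also among the 15, are described with the lymphoid markers.

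Of the 76 named genes called, 63 had a control mean nearer to the PCBP2 mean than to the PCBP1 mean. The genes were chosen for this difference, so the count is a description of them and not a test.

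**Figure D2:**
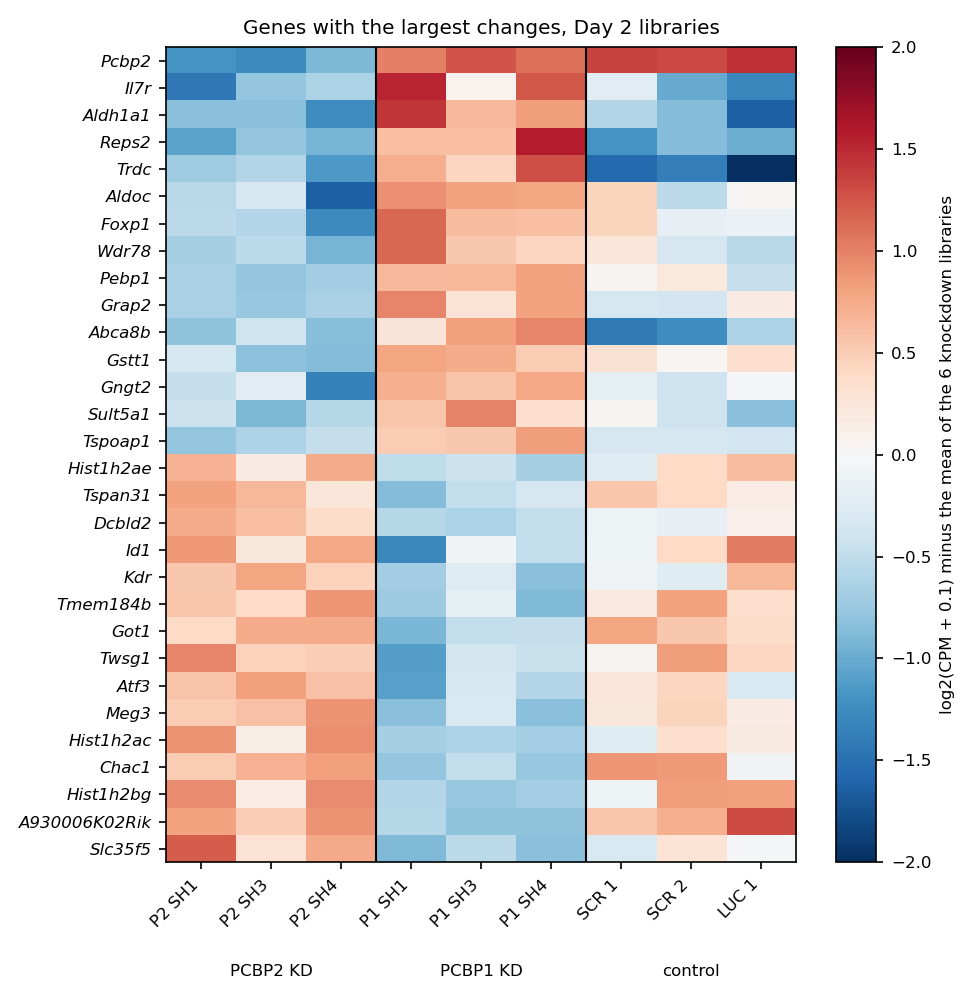
Level of the 15 genes most lowered (top, with Pcbp2 itself) and the 15 most raised (bottom) in the Day 2 libraries, as log2(CPM + 0.1) minus the mean of the 6 knockdown libraries, with PCBP2 knockdown at left, PCBP1 knockdown in the middle and controls at right (red above that mean, blue below it). The genes were selected for a difference between the left and middle blocks; Aldh1a1 and Reps2 have controls near the PCBP2 values, while Foxp1 and Pebp1 have controls between the knockdowns.

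The lists of functional genes showed a difference between the knockdowns in the integrated stress response, the program driven by ATF4 when translation initiation is restrained. The summed level of its genes was 16200 to 17300 CPM with PCBP2 knockdown, 12500 to 14200 CPM with PCBP1 knockdown and 18400 to 19500 CPM in the controls. In this sum, to which highly expressed genes add most, both knockdowns were below every control. Of the 26 genes tested in this list, 9 were called higher and none lower with PCBP2 knockdown than with PCBP1 knockdown, against 3.64% and 3.48% of all genes. The median log2 fold change was 0.35, against -0.005 over all genes. Chac1 (chr2:119351229-119354381, plus strand), which codes for an enzyme that degrades glutathione, was at 19.1, 21.8 and 23.6 CPM with PCBP2 knockdown, against 7.79, 9.47 and 7.89 CPM with PCBP1 knockdown and 24.8, 24.3 and 12.7 CPM in the controls (log2 1.37, SE 0.16, edgeR adjusted p = 0.000106). Trib3, a pseudokinase that acts back on the pathway, was at 495, 642 and 540 CPM, against 201, 280 and 308 CPM with PCBP1 knockdown and 468 to 680 CPM in the controls (log2 1.10, SE 0.15, edgeR adjusted p = 0.000993). Both genes were below the control range in the PCBP1 libraries and within it in the PCBP2 libraries. The transcription factor genes Atf4, Atf5 and Ddit3 rose by log2 values of 0.44, 0.66 and 0.52. Asparagine synthetase (Asns) rose by 0.47, and both chains of a large neutral amino acid transporter rose, Slc7a5 by 0.52 and Slc3a2 by 0.43. Sars, the seryl-tRNA synthetase gene, rose by 0.57. The serine and glycine enzyme genes Shmt2 (0.42, edgeR adjusted p = 0.0505), Phgdh (-0.39) and Psat1 (-0.17) were not called. Chac1 and Trib3 were called in every fit that left out a library. The list count was 3, 5 and 3 without PCBP2 hairpins 1, 3 and 4, and 2, 11 and 3 without PCBP1 hairpins 1, 3 and 4. Slc7a5 was lost without PCBP2 hairpin 1 (edgeR adjusted p = 0.0623) or 4 (0.0592) and without PCBP1 hairpin 1 (0.0511) or 4 (0.0572), and Sars without PCBP2 hairpin 4 (0.0831) or PCBP1 hairpin 1 (0.0676).

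Immediate-early genes, which respond within minutes to stimulation, were called higher in 4 of 17 cases and lower in none, with a median of 0.10. Atf3, a stress-induced repressor, was at 119, 141 and 120 CPM with PCBP2 knockdown, against 37.6, 64.0 and 52.8 CPM with PCBP1 knockdown and 94.4, 107 and 64.6 CPM in the controls, so every PCBP2 library was above every control (log2 1.32, SE 0.17, edgeR adjusted p = 0.00057). The MAP kinase phosphatase gene Dusp1 was at 176, 170 and 179 CPM, against 70.0, 72.8 and 128 CPM with PCBP1 knockdown and 176 to 204 CPM in the controls (log2 0.97, edgeR adjusted p = 0.0187). Fos (0.74) and Ier2 (0.52) were the others called, while their relatives Jun (-0.05), Junb (0.05), Egr1 (0.01) and Myc (0.16) were not. Without PCBP2 hairpins 1, 3 and 4 the list counts were 1, 2 and 1, and without PCBP1 hairpins 1, 3 and 4 they were 2, 4 and 3. Atf3 was called in each of these fits. Dusp1 was lost without PCBP2 hairpin 1 (edgeR adjusted p = 0.0617), 3 (0.06) or 4 (0.0969), Fos without these or PCBP1 hairpin 1 (0.0503 to 0.0725), and Ier2 in every fit but the one without PCBP2 hairpin 3 (0.0557 to 0.165). Dnajb1, a co-chaperone of HSP70, was the 1 heat-shock gene called of 11 (log2 0.74, edgeR adjusted p = 0.00705), and Gdf15, a growth factor gene induced by stress and p53, the 1 called of 16 CDK inhibitor and p53 target genes (0.63, adjusted p = 0.0384). Gdf15 was called only without PCBP1 hairpin 3 among the 6 fits that left out a library, and its adjusted p was between 0.0703 and 0.147 in the other 5. Hspa9, the mitochondrial HSP70 that serves iron-sulfur cluster transfer, was the 1 of 14 iron-sulfur genes called, at 475, 562 and 534 CPM, against 295, 389 and 318 CPM with PCBP1 knockdown (log2 0.66, edgeR adjusted p = 0.0076).

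Some genes of DNA replication and mitosis were lower with PCBP2 knockdown than with PCBP1 knockdown. The summed level of the replication genes was 1140 to 1300 CPM with PCBP2 knockdown, 1360 to 1730 CPM with PCBP1 knockdown and 1050 to 1470 CPM in the controls. For the mitosis genes it was 2740 to 2970, 2920 to 3920 and 2840 to 3200 CPM in the same order. Of 25 replication genes 5 were called lower and none higher, against 3.48% and 3.64% of all genes, with a median log2 fold change of -0.49, and 1 of the 25 had a positive value. The called genes were the MCM helicase subunits Mcm3 (-0.70), Mcm4 (-0.61), Mcm5 (-0.55) and Mcm6 (-0.57) and the clamp loader subunit Rfc3 (-0.71). Mcm3 was at 47.8, 52.7 and 43.3 CPM with PCBP2 knockdown, against 87.6, 59.0 and 88.3 CPM with PCBP1 knockdown and 66.4, 66.5 and 39.8 CPM in the controls (edgeR adjusted p = 0.0153). PCBP1 hairpins 1 and 4 were above the controls and PCBP1 hairpin 3 was close to the PCBP2 libraries. Of 23 mitosis genes 7 were called lower and none higher, with a median of -0.41 and no positive value. Depdc1b, a gene of the transition into mitosis, was at 4.51, 4.47 and 3.60 CPM, against 10.0, 7.82 and 9.68 CPM with PCBP1 knockdown and 8.02, 6.39 and 8.08 CPM in the controls (log2 -1.12, SE 0.19, edgeR adjusted p = 0.00293). Topoisomerase II alpha (Top2a) was lower by -0.73, the spindle checkpoint kinase gene Ttk by -0.74, the cyclin-dependent kinase gene Cdk1 by -0.62, the spindle motor gene Kif11 by -0.53, Plk1 by -0.54 and the cyclin gene Ccnb1 by -0.46. Mki67, a general marker of cycling cells, had a value of -0.16 and Pcna one of -0.24, and neither was called. The counts depended on libraries of both knockdowns. Without PCBP1 hairpins 1, 3 and 4 the replication counts were 1, 16 and 0 and the mitosis counts 2, 15 and 1, and without PCBP2 hairpins 1, 3 and 4 they were 0, 4 and 0, and 1, 4 and 1. Of the 8 genes that the rule named in both lists (Mcm3, Mcm4, Mcm5, Rfc3, Depdc1b, Top2a, Cdk1 and Ttk), Depdc1b alone stayed called whichever library was left out.

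**Figure D3:**
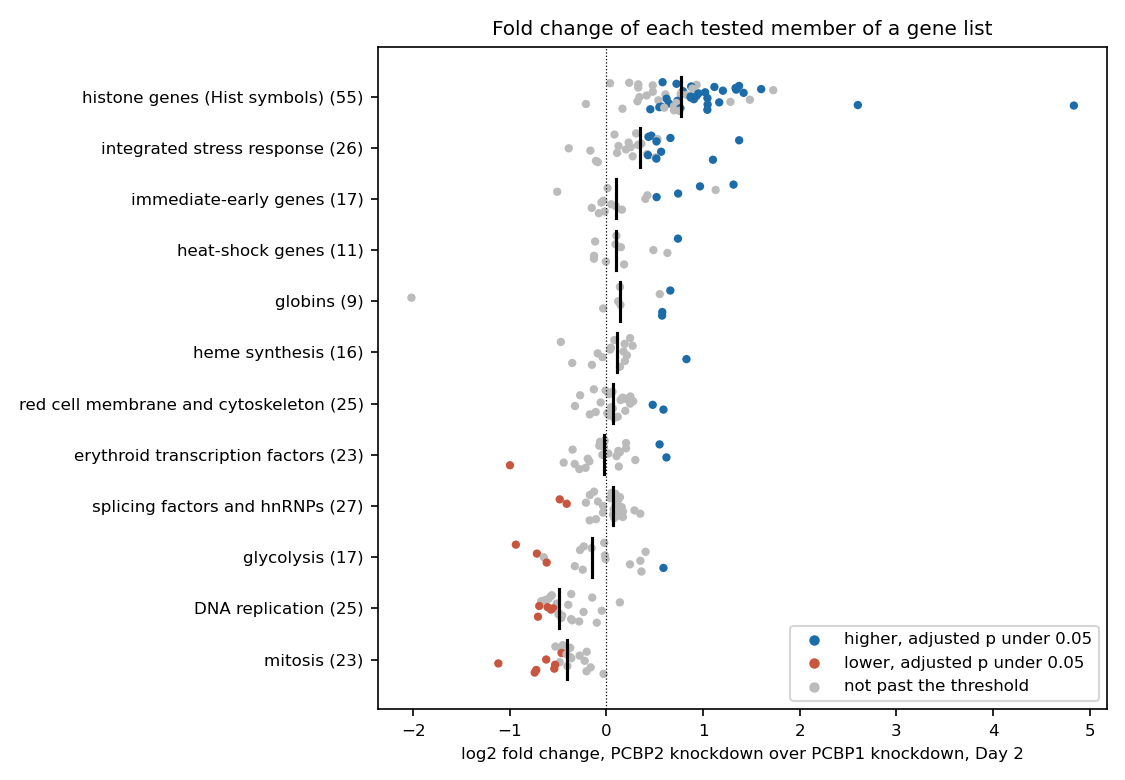
Log2 fold change, PCBP2 knockdown over PCBP1 knockdown at Day 2, of each tested member of 12 gene groups, with the number of members in parentheses and the group median as a black line; blue points are higher and red points lower at an edgeR adjusted p under 0.05, and grey points are not called. The integrated stress response median lies at 0.35 and the DNA replication and mitosis medians at -0.49 and -0.41, while most erythroid members are grey and near 0.

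The erythroid lists held called genes in both directions, to be read against 3.64% higher and 3.48% lower among all genes. Of 9 globin genes 3 were called higher and none lower, with a median of 0.15. The theta-globin genes Hbq1b and Hbq1a both rose by a log2 of 0.58. Hbq1b was at 264, 268 and 287 CPM with PCBP2 knockdown, against 196, 181 and 177 CPM with PCBP1 knockdown and 324 to 335 CPM in the controls (edgeR adjusted p = 0.00986), so both knockdowns were below the controls. The alpha-globin gene Hba-a2 was at 12300, 12700 and 13800 CPM, against 5910, 10800 and 8110 CPM with PCBP1 knockdown and 6140 to 8450 CPM in the controls (log2 0.66, edgeR adjusted p = 0.0406). Hba-a1, a nearly identical copy, was not called (log2 0.14, edgeR adjusted p = 0.49), and reads may be divided between the copies, as between Hbq1a and Hbq1b. The adult beta-globin genes Hbb-bs and Hbb-bt had values of 0.12 and 0.15, and neither was called. Hba-a2 stayed called only without PCBP1 hairpin 3 (0.00259), with adjusted p between 0.0794 and 0.18 in the other 5 fits. Hbq1b was lost without PCBP2 hairpin 4 alone (0.0505), and Hbq1a without PCBP2 hairpin 1 or 4 or PCBP1 hairpin 3 or 4 (adjusted p between 0.0614 and 0.166).

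Among 23 erythroid transcription factors 2 were higher and 1 lower, with a median of -0.03. Stat5b, which acts below the erythropoietin receptor, was at 15.8, 16.3 and 13.3 CPM, against 21.4, 34.9 and 35.1 CPM with PCBP1 knockdown and 14.1 to 24.4 CPM in the controls (log2 -0.998, SE 0.18, edgeR adjusted p = 0.00483). Lyl1, a partner-binding relative of Tal1, rose by 0.62 (edgeR adjusted p = 0.0156) and E2f4 by 0.55 (0.0214). Lyl1 was lost without PCBP2 hairpin 1 (0.0739), PCBP2 hairpin 4 (0.0903) or PCBP1 hairpin 1 (0.0577), and E2f4 without these or PCBP1 hairpin 4 (adjusted p between 0.0585 and 0.126). Gata1 (-0.03) and Klf1 (0.12) were not called. Of 16 heme synthesis genes 1 was called, protoporphyrinogen oxidase (Ppox), at 1420, 1050 and 1720 CPM, against 713, 936 and 732 CPM with PCBP1 knockdown and 1360 to 1980 CPM in the controls (log2 0.83, edgeR adjusted p = 0.0129). It was lost without PCBP2 hairpin 1 (0.0547) or PCBP1 hairpin 1 (0.0511) or 4 (0.0858). Of 25 red cell membrane genes 2 were higher, the glucose transporter gene Slc2a1 (0.59) and the Kell antigen gene Kel (0.48), and none lower. Neither was called without PCBP2 hairpin 1, PCBP1 hairpin 1 or PCBP1 hairpin 4, nor Kel without PCBP2 hairpin 4 (adjusted p between 0.05 and 0.119). Of 23 terminal maturation genes, Tspo2, which codes for an erythroid cholesterol-handling protein, rose by 0.95 (219, 207 and 242 CPM, against 130, 112 and 109 CPM with PCBP1 knockdown; edgeR adjusted p = 0.000711) and Hdac2 fell by 0.57 (adjusted p = 0.042). Tspo2 was called in every fit and Hdac2 only without PCBP1 hairpin 3 (0.0103), with adjusted p up to 0.166 in the others. Of 16 iron handling genes the ferrireductase gene Steap3 was lower (-0.55, edgeR adjusted p = 0.0254), a call that held only without PCBP1 hairpin 3 (0.00923; up to 0.125 otherwise). None of 13 progenitor genes was called; Spi1 and Csf2rb, those with the smallest p, had values of -0.53 and -0.30.

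Among 17 glycolysis genes 3 were lower and 1 higher. Enolase (Eno1) was at 153, 145 and 103 CPM with PCBP2 knockdown, against 268, 256 and 248 CPM with PCBP1 knockdown and 249, 187 and 145 CPM in the controls (log2 -0.94, SE 0.14, edgeR adjusted p = 0.00148). Lactate dehydrogenase (Ldha) was lower by -0.72 and phosphoglycerate kinase (Pgk1) by -0.62. The higher gene was Slc2a1, so the transporter and the enzymes differed in opposite directions. Ldha was lost without PCBP2 hairpin 1 (edgeR adjusted p = 0.0556), and Pgk1 without PCBP2 hairpin 1 (0.0593) or 4 (0.108) or PCBP1 hairpin 1 (0.0832). None of 19 cholesterol synthesis genes was called, with values of -0.40 for Srebf2 and 0.48 for Insig1. Of 18 interferon response genes 2 were called higher, Isg20 (0.56) and Mx1 (0.73), although the list's median was -0.24, a sign opposite to that of its called members. Isg20 was lost without PCBP2 hairpin 1 (0.106) or PCBP1 hairpin 4 (0.0796), and Mx1 without PCBP2 hairpin 1 or 4 or PCBP1 hairpin 1 or 4 (adjusted p between 0.115 and 0.223).

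The lists of RNA-binding genes held called genes at about the 7.12% seen among all genes. Of 27 splicing factor and hnRNP genes 2 were lower and none higher, with a median of 0.07. Hnrnpm was at 252, 217 and 244 CPM, against 402, 312 and 292 CPM with PCBP1 knockdown (log2 -0.48, edgeR adjusted p = 0.0397), and Ptbp3, the polypyrimidine tract-binding protein of blood cells, at 1010, 1120 and 957 CPM, against 1440, 1390 and 1320 CPM (-0.41, adjusted p = 0.0398). Hnrnpm was lost without PCBP2 hairpins 1, 3 or 4 or PCBP1 hairpin 1 (adjusted p between 0.105 and 0.175), and Ptbp3 was lost whichever library was left out (0.0516 to 0.152). Of 12 other tissue splicing regulators 1 was lower, Tial1 (-0.49, edgeR adjusted p = 0.0238), lost without PCBP2 hairpins 1, 3 or 4 or PCBP1 hairpin 1 (0.0541 to 0.105). Of 24 genes known for erythroid splicing switches the adducin gene Add3 was higher (0.71, edgeR adjusted p = 0.0165), lost without PCBP2 hairpin 1 or 4 or PCBP1 hairpin 1 or 4 (0.0528 to 0.0969). Among 11 tested mRNAs that have been reported as PCBP targets, Hba-a2 was higher and Cdk2 lower (-0.50, edgeR adjusted p = 0.0455), and Cdk2 was called only without PCBP1 hairpin 3 (0.0151; 0.096 to 0.171 otherwise). The ferritin gene Fth1 (0.02) and the ferritinophagy receptor gene Ncoa4 (0.12) were not called.

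Markers of other blood cells were mostly uncalled: none of 10 neutrophil, 6 macrophage or 7 mast cell and basophil genes passed (Ltf 0.22, Camp 0.26, Cd68 0.42, Adgre1 0.69, Cpa3 -0.57 and Hdc -0.36 had the smallest p). Of 12 megakaryocyte genes Tubb1 was lower (65.4, 55.8 and 58.2 CPM, against 109, 99.3 and 104 CPM with PCBP1 knockdown and 66.7 to 75.8 CPM in the controls; log2 -0.79, edgeR adjusted p = 0.00211). Of 5 lymphoid genes tested 2 were lower. Trdc, the constant gene of the T-cell receptor delta chain, was at 14.7, 16.1 and 10.8 CPM with PCBP2 knockdown, against 40.2, 32.4 and 59.2 CPM with PCBP1 knockdown and 8.17, 9.19 and 4.83 CPM in the controls (log2 -1.65, SE 0.22, edgeR adjusted p = 0.00194). The interleukin-7 receptor gene Il7r was at 2.03, 3.26 and 3.60 CPM, against 16.3, 5.90 and 13.4 CPM and 4.77, 2.76 and 2.21 CPM (log2 -1.98, edgeR adjusted p = 0.0281), lost without PCBP2 hairpins 1, 3 or 4 or PCBP1 hairpin 4 (0.0743 to 0.101). Over the 11 lymphoid genes the summed level was 24.8 to 28.7 CPM with PCBP2 knockdown, 47.6 to 81.4 CPM with PCBP1 knockdown and 13.6 to 19.7 CPM in the controls. Trdc and Il7r made up most of this sum in the PCBP1 libraries, so it does not show a difference in the other lymphoid genes. The part of such cells in the other differences was not tested, and in bulk RNA fewer cells of a type and less RNA per cell cannot be told apart. Of 4 endothelial and stromal genes Kdr was higher and Col1a2 lower (-1.79, edgeR adjusted p = 0.00301).

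The same knockdowns compared at Day 0 showed how far the Day 2 differences were already there. At Day 0, 196 of 15386 genes (1.27%) were higher and 50 (0.325%) lower with PCBP2 knockdown than with PCBP1 knockdown. Of the 534 genes higher at Day 2, 457 were tested at Day 0, 297 of them had the same sign and 19 were called the same way, with a median log2 of 0.04 at Day 0 and 0.69 at Day 2. Of the 511 lower at Day 2, 477 were tested, 321 had the same sign, 11 were called the same way and 2 the opposite way, with medians of -0.05 and -0.67. Besides Pcbp2 itself, Got1 was among the genes called the same way on both days: 47.1, 51.2 and 51.5 CPM with PCBP2 knockdown at Day 0, against 15.7, 24.8 and 18.5 CPM with PCBP1 knockdown and 45.8 to 53.9 CPM in the controls (log2 1.32, edgeR adjusted p = 0.0078), and the change between days was -0.08. Depdc1b was lower on both days (-0.75 at Day 0, edgeR adjusted p = 0.00197).

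A test of the change itself, the Day 2 difference minus the Day 0 difference in the 12 knockdown libraries, called 392 of 17030 genes (2.3%), 113 with a more positive (0.664%) and 279 with a more negative difference at Day 2 (1.64%). Pebp1 had the smallest p. At Day 0 it was at 142, 135 and 148 CPM with PCBP2 knockdown, against 156, 140 and 140 CPM with PCBP1 knockdown, which overlap, and the Day 2 difference was lower by -1.36 (SE 0.13, edgeR adjusted p = 1.25e-05). Urb2, a gene of ribosome biogenesis, was at 51.4, 53.6 and 50.7 CPM, against 57.4, 55.9 and 58.0 CPM with PCBP1 knockdown at Day 0, and at 73.4, 76.8 and 62.0 CPM, against 41.5, 39.7 and 34.0 CPM, at Day 2 (change 1.03, edgeR adjusted p = 0.00238). Eid1, which codes for an inhibitor of the p300 acetyltransferase, was called higher at Day 0 (0.34, edgeR adjusted p = 0.0319) and lower at Day 2 (-0.82, adjusted p = 0.00606), a change of -1.18 (adjusted p = 0.00238). Ints14, an Integrator subunit gene, the diacylglycerol kinase gene Dgkz and Arhgap45 changed by -1.15, -0.88 and -0.95. Of 23 mitosis genes 6 and of 25 replication genes 2 were called in this test. Their medians at Day 0 were 0.03 and 0.04. The count of 392 was sensitive to single libraries: it was 67, 169 and 122 without Day 0 PCBP2 hairpins 1, 3 and 4, 49, 144 and 98 without Day 0 PCBP1 hairpins 1, 3 and 4, 208, 549 and 159 without Day 2 PCBP2 hairpins 1, 3 and 4, and 249, 1744 and 231 without Day 2 PCBP1 hairpins 1, 3 and 4.

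Isoform use was compared first at the level of annotated transcripts, whose estimated counts are the replicated isoform measure in the files. Of 6228 genes with more than 1 transcript tested, 97 (1.56%) were called for a change in the relative use of transcripts (edgeR, Simes adjusted p under 0.05). Many of the calls concerned transcripts that are minor or nearly absent: 40 of 124 called transcripts had no read in any library of 1 group, and with transcripts of at least 10% of their gene alone, 27 genes were called. Tulp4, a Tubby-family gene, was called under both. Its transcript Tulp4-209 held 0%, 0.581% and 1.10% of the gene's reads with PCBP2 hairpins 1, 3 and 4, against 21%, 16.3% and 21.2% with the PCBP1 hairpins and 17.7%, 15.7% and 26.6% in the controls (edgeR adjusted p = 2.99e-07). The transcript was nearly missing in the PCBP2 libraries alone. Mbnl1, a splicing regulator whose own exons switch in erythroid cells, used Mbnl1-201 for 2.98%, 0.904% and 2.92% of its reads with PCBP2 knockdown, against 12.6%, 9.73% and 5.46% with PCBP1 knockdown and 16.9%, 16.6% and 12.4% in the controls (edgeR adjusted p = 4.59e-05). All 3 PCBP2 values were below all other libraries. Wnk1, a kinase of ion transport, used Wnk1-224 for 2.45%, 2.65% and 2.20%, against 11.9%, 7.12% and 6.92% with PCBP1 knockdown and 2.94%, 0.296% and 1.75% in the controls (edgeR adjusted p = 4.93e-08), so the PCBP1 libraries were the high ones.

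Other calls rested on transcripts that vary among the controls themselves. Epb41-203, a transcript of the protein 4.1R gene of the membrane skeleton, had 0, 0 and 3 estimated reads with PCBP2 knockdown, against 51, 1627 and 2387 with PCBP1 knockdown and 24, 40 and 1752 in the controls (edgeR adjusted p = 1.03e-15). Hdlbp-204, Srcap-206 and Nfe2l1-212 were high with PCBP2 knockdown and near 0 with PCBP1 knockdown, and were at 0 reads in both SCR-2 and LUC-1. Specc1-217 had 1243, 655 and 1968 reads, against 0 in the 3 PCBP1 libraries and 1512 to 4871 in the controls. At no more than 4.85% of its gene in any of these libraries, it is among the minor transcripts. When those were left out, Specc1 stayed called on its other transcripts and Tulp4 also stayed called, while the other genes named here did not. Maf1-204 had 0 reads in the PCBP2 libraries and 40, 110 and 57 in the PCBP1 libraries. In the erythroid and splicing lists, Ank1-202 and Ank1-203 of the ankyrin gene and Mbnl2-202 had lower relative use and Ptbp3-208 and Ptbp3-205 higher use with PCBP2 knockdown (edgeR, Simes adjusted p = 0.00116, 0.0326 and 2.64e-06 for Ank1, Mbnl2 and Ptbp3). Ank1-202 and Ank1-203 held no more than 2.13% and 2.07% of their gene in any of these libraries, and Ptbp3-205 held 2.76% to 11.8% in the controls. Without transcripts under 10% of their gene, Ank1, Mbnl2 and Ptbp3 were no longer called, nor were Mbnl1 and Wnk1. Mbnl2 kept its call only without PCBP2 hairpin 1 among the 6 fits that left out a library. The uncertainty of assigning reads to transcripts is not in the deposited tables and was not modelled.

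Splice junctions were compared through the authors' tables of local splicing variations, each of which is the set of junctions that leave or enter 1 exon. For each junction the tables give an expected share of use (E(PSI), a fraction) from the pooled libraries of a group, so a difference has no replicate error and no test. The PCBP2 and PCBP1 tables of Day 2 shared 83529 variations in 7320 genes, with the same junctions and the same control values in all of them. At least 1 junction differed by 0.20 or more between the knockdowns in 1157 variations (1.39%) of 878 genes. The share was 8.23% at a difference of 0.10 and 0.241% at 0.30. The junction with the widest difference was used more with PCBP2 knockdown in 439 of the 1157, and it was an annotated junction for 69.1% of those past 0.20 with a junction as the widest entry and for 66.1% of all. In the authors' comparisons with control, the probability of a change of at least 0.20 exceeded 0.95 for 51 variations with PCBP2 knockdown and 149 with PCBP1 knockdown, of which 26 and 108 are among the 1157. Of 852 genes past 0.20 that were tested for expression, 96 were also called for expression, against 680 of the 7084 tested genes that have a variation.

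Exons that are skipped or included as a unit give the simplest view of these differences. Of 8024 entries for such cassette exons, inclusion was higher by 0.20 or more with PCBP2 knockdown in 14 (0.174%) and lower in 22 (0.274%), and 15 of the 36 exons (41.7%) had a length that is a multiple of 3, against 37.7% of all cassette exons. The sequences of 5 exons are shown because PCBP proteins bind C runs. They are the exons with the widest and next widest difference in each direction among annotated exons that are coding throughout, and the Runx1 exon described last. Capitals mark runs of 3 or more C. All are on GRCm38, were read from GENCODE M21 transcripts and are written 5′ to 3′ on the gene's strand.
Sh3d19 exon, chr3:86106970-86107038, plus strand: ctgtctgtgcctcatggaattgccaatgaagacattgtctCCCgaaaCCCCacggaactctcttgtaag
Agrn exon, chr4:156173003-156173130, minus strand: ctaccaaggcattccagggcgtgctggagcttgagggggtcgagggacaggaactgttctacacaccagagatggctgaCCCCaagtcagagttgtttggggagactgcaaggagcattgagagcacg
Nckap1 exon, chr2:80508712-80508805, minus strand: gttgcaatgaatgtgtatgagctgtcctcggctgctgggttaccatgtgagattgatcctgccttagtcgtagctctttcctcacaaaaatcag
Mfn2 exon, chr4:147882881-147882983, minus strand: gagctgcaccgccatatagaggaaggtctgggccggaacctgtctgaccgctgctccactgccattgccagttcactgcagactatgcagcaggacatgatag
Runx1 exon, chr16:92644154-92644345, minus strand: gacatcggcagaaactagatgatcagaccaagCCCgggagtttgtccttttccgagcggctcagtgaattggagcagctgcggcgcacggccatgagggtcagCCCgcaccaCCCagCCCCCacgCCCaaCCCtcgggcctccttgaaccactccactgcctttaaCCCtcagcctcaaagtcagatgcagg

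The 69-base Sh3d19 exon, in a gene for an adaptor with SH3 domains, had an E(PSI) of 0.917 with PCBP2 knockdown, against 0.450 with PCBP1 knockdown and 0.838 in the controls. The 128-base exon of Agrn, which codes for agrin, was at 0.857, against 0.548 with PCBP1 knockdown and 0.911 in the controls. In both, the PCBP1 knockdown was the value that stood apart from the controls. The 94-base exon of Nckap1, a subunit of the WAVE complex that drives actin branching, was at 0.547 with PCBP2 knockdown, against 0.954 with PCBP1 knockdown and 0.990 in the controls, and the 103-base exon of Mfn2, the mitofusin of mitochondrial fusion, at 0.724, against 0.987 with PCBP1 knockdown and 0.986 in the controls. Here the PCBP2 knockdown stood apart, and neither length is a multiple of 3. At Day 0 the Nckap1 exon was at 0.936 with PCBP2 knockdown and 0.940 with PCBP1 knockdown. The letters CCC occur in the Sh3d19, Agrn and Runx1 exons and not in the Nckap1 or Mfn2 exons (gene strand only, a run of more than 3 counted once). Among coding exons of the same length in each case, 51.2%, 75.9%, 88.9%, 63.2% and 68.5% hold them. Over the coding cassette exons, CCC was present in 3 of 3 with higher inclusion, 6 of 13 (46.2%) with lower inclusion and 65.5% of all, numbers too small for a comparison.

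**Figure D4:**
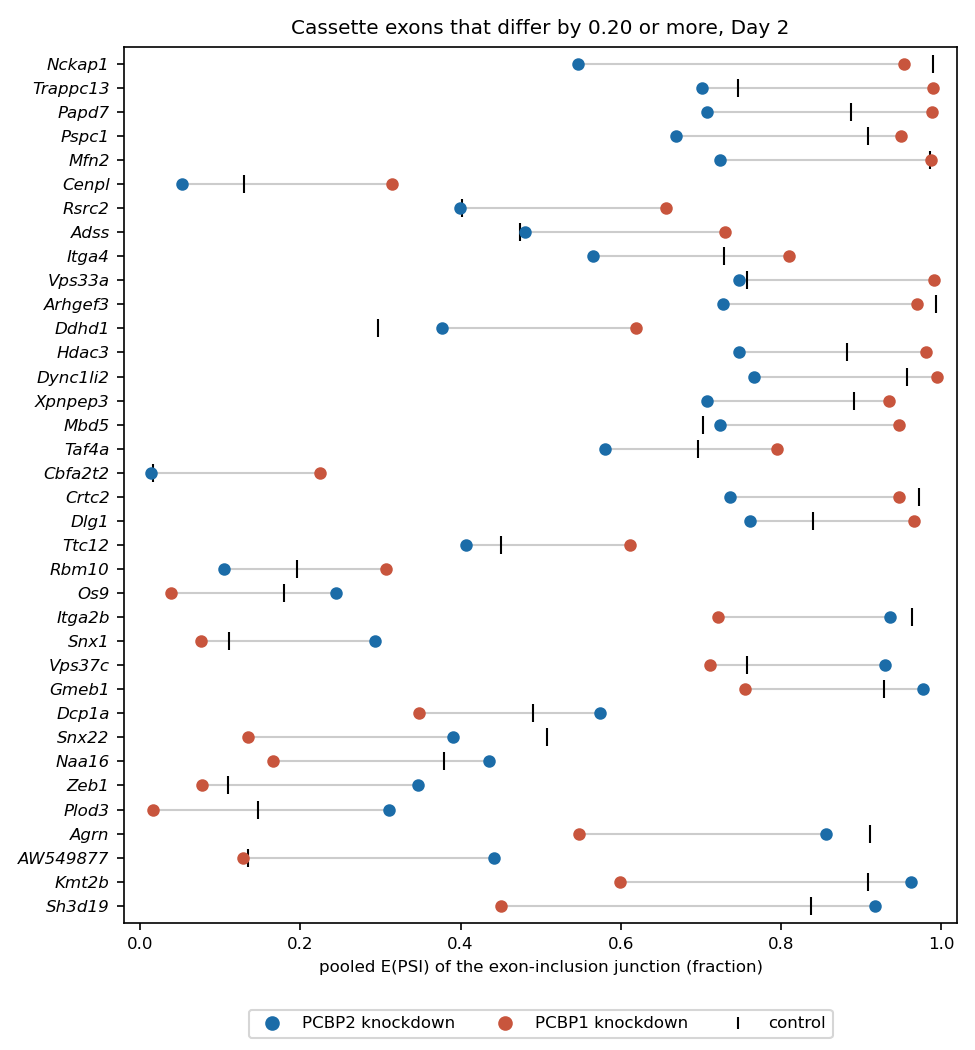
Pooled E(PSI) of the inclusion junction for the 36 cassette exons that differed by 0.20 or more between the knockdowns at Day 2, with PCBP2 knockdown in blue, PCBP1 knockdown in red and control as a black tick. The exons were selected by the blue-to-red distance; Nckap1 (0.547 against 0.954) is at the top and Sh3d19 (0.917 against 0.450) at the bottom, and there are no replicates behind the points.

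The widest differences at single junctions fell in Gm20388, Brox, Ank1, Sesn1, Fzr1, Ifitm10, Ocel1, Elmsan1, Gm20492, Nckap1, Wnk4 and Tbc1d10b, all with at least 0.499 between the knockdowns. Ank1 codes for ankyrin-1, which ties spectrin to band 3 in the red cell membrane. Among the junctions that enter 1 of its exons, the one from chr8:23035245 to 23037167 had an E(PSI) of 0.11 with PCBP2 knockdown, against 0.709 with PCBP1 knockdown and 0.629 in the controls. Among the junctions that leave the upstream exon it was a minor one, at 0.011, against 0.039 and 0.038. A second acceptor lies 54 bases downstream, at 23037221. The junction to 23037167 is not in the GENCODE M21 annotation. In Sesn1, a p53-induced sestrin gene, an annotated junction was used at 0.315, against 0.894 with PCBP1 knockdown and 0.702 in the controls, and at 0.967 and 0.996 with PCBP2 and PCBP1 knockdown at Day 0. In Fzr1, an activator of the anaphase-promoting complex, and in Tbc1d10b, a Rab GTPase-activating protein gene, the PCBP1 knockdown stood apart: 0.089 against 0.655 with PCBP1 knockdown and 0.075 in the controls for Fzr1, and 0.031 against 0.530 and 0.070 for Tbc1d10b. Seen from its other end, the Fzr1 junction was rare, at 0.002, against 0.035 with PCBP1 knockdown and 0.004 in the controls, while the Tbc1d10b junction was at 0.036, against 0.420 and 0.083. In Brox the widest junction was at 0.801, against 0.194 with PCBP1 knockdown and 0.660 in the controls. Its gene level differed too (log2 -0.61, edgeR adjusted p = 0.0155). Retained introns contributed little: of 16285 intron entries 3 (0.0184%) were higher and 6 (0.0368%) lower by 0.20 or more, with Ifitm10 the widest at 0.547, against 0.004 with PCBP1 knockdown and 0.266 in the controls.

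Several genes of the splicing and erythroid splicing lists also passed 0.20. They were Hnrnpa1, Srsf10, Runx1, U2af2, Add3, Srsf7, Mbnl1, Epor, Gata1 and Hnrnpl. In Epor, the erythropoietin receptor gene, an annotated junction was at 0.853 with PCBP2 knockdown, against 0.636 with PCBP1 knockdown and 0.905 in the controls, and in Gata1 an unannotated one at 0.801, against 0.586 and 0.770. From its other end the Gata1 junction was at 0.467, against 0.536 with PCBP1 knockdown and 0.642 in the controls, the opposite order of the knockdowns. In the authors' deposited table its expected change with PCBP1 knockdown against control was -0.059. In Srsf7 a junction stood at 0.452, against 0.673 with PCBP1 knockdown and 0.635 in the controls, and in Hnrnpa1 the widest of several stood at 0.474, against 0.824 and 0.611, on either side of the controls. The authors' expected changes against control were smaller. They were -0.136 with PCBP2 and 0.005 with PCBP1 knockdown for this Srsf7 junction, and -0.049 and 0.075 for this Hnrnpa1 junction. The authors' probability of a change of at least 0.20 was at most 0.188 for Srsf7 and 0.141 for Hnrnpa1.

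For 7 exons past 0.20, Runx1 and 6 others, the transcript estimates also gave a share of transcripts with the exon in each library. For most of them these shares did not show the pooled difference. The share and the E(PSI) are unlike measures that differed in the controls too. There the Ddhd1 exon had an E(PSI) of 0.297 and shares of 87%, 75.1% and 76.4%, and the Dcp1a exon 0.49 and 100%. For such exons the shares cannot decide whether single libraries held the pooled difference. The Ddhd1 exon was at 78.2%, 83.4% and 77.2% with PCBP2 knockdown, against 83%, 82.8% and 78.6% with PCBP1 knockdown, and the groups also overlapped for Cenpl and Naa16. The Dcp1a exon was at 100% in all of these libraries. The Cbfa2t2 exon, pooled at 0.014 with PCBP2 knockdown and 0.225 with PCBP1 knockdown, was at 19.6%, 6.93% and 11% with PCBP2 knockdown, against 13.8%, 2.59% and 7.46% with PCBP1 knockdown, which overlap. The Xpnpep3 exon was at 81%, 88.8% and 76.6%, against 100%, 93.9% and 100% with PCBP1 knockdown, without overlap and in the pooled direction.

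Runx1, a transcription factor gene of early hematopoiesis, was the other gene without overlap in the pooled direction. Its 192-base exon, printed above with 7 C runs of which the longest has 5, is coding and keeps the frame. The junction from this exon to the next had an E(PSI) of 0.142 with PCBP2 knockdown, against 0.398 with PCBP1 knockdown and 0.445 in the controls. The junction into it was at 0.234, against 0.449 and 0.468. At Day 0 the first of these was at 0.320 with PCBP2 knockdown and 0.586 with PCBP1 knockdown. From the transcript estimates, the share of Runx1 transcripts with the exon, among those that either hold or skip it, was 48.5%, 46.1% and 43.0% with PCBP2 hairpins 1, 3 and 4, against 64.8%, 62.8% and 62.2% with PCBP1 hairpins 1, 3 and 4 and 61.0%, 57.7% and 63.5% in the controls. All 3 PCBP2 libraries were below all 6 others. The means were 45.9% ± 2.8 and 63.3% ± 1.4 (SD, n = 3 each), a difference of -17.4 percentage points with an exact two-sided permutation p of 0.1, the smallest that 3 against 3 allows. The exon was taken up for its pooled difference in these same libraries, so this p is not independent of that choice. At Day 0 the means were 56.4% ± 2.9 and 59.9% ± 0.49, and the highest PCBP2 value and the lowest PCBP1 value were both 59.6% (exact two-sided permutation p = 0.2). The share and the E(PSI) thus gave different pictures at Day 0, where the E(PSI) values of 0.320 and 0.586 lay about as far apart as at Day 2. Whether the Runx1 difference was smaller at Day 0 cannot be decided from these unlike measures. Neither the level of Runx1 (log2 -0.18, edgeR adjusted p = 0.471) nor its transcript use (adjusted p = 0.598) was called.

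**Figure D5:**
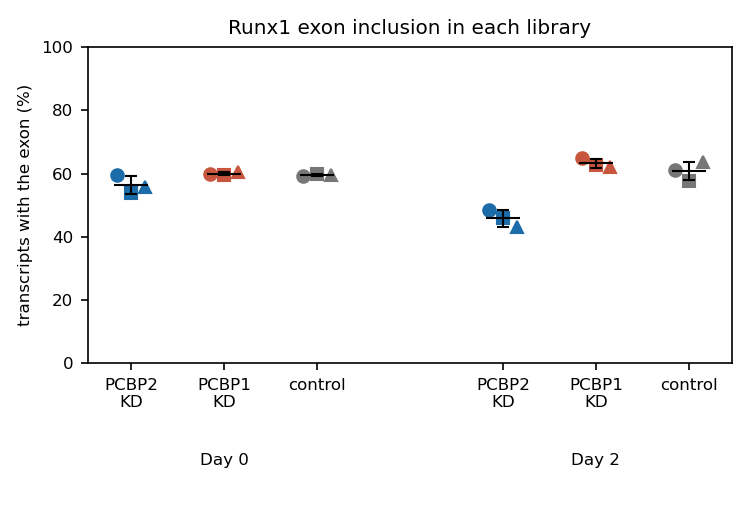
Share of Runx1 transcripts that hold the 192-base exon in each library at Day 0 and Day 2, in percent, with circles, squares and triangles for hairpins 1, 3 and 4, or for the controls in the order SCR-1, SCR-2, LUC-1, and the mean with SD as bars. At Day 2 the PCBP2 libraries lie between 43.0% and 48.5%, under the 62.2% to 64.8% of the PCBP1 libraries. The pooled E(PSI), not shown here, differed at Day 0 too (0.320 with PCBP2 and 0.586 with PCBP1 knockdown).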

How the data were processed

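Per the submitters' processing notes, FastQC 0.11.9, Trim Galore 1.46.0, STAR 2.5.3a, SAMtools 1.9 and Salmon 0.11.3 were used with GRCm38. The authors deposited estimated counts per transcript for each library and tables of E(PSI), a fraction, with an expected change and its probability, for pooled libraries. The tool behind the E(PSI) tables is not given in the sources used here. The estimated counts were summed to genes (GENCODE M21) and rounded; 1303 of 111706 transcripts without a match there, with at most 0.351% of the Day 2 reads, were left out. Genes passing filterByExpr were tested with edgeR 4.0.16 (TMM, robust quasi-likelihood F test, Benjamini-Hochberg at 0.05) in R 4.3.3 on the 6 libraries, and transcript use with diffSpliceDGE. CPM values use TMM factors of all 18 libraries. E(PSI) was subtracted between the tables for the same junction, without a test. Scripts were tested on simulated data. The gene test recovered 32.8% of genes changed 1.5-fold and 95.5% of those changed 2-fold. For the day test the shares were 20.9% and 88.1%. A gene that was not called may therefore still differ by about 1.5-fold. For transcript use, 60.5% of 195 genes with a 4-fold change in 1 transcript were recovered, with 22 false calls among 5806 genes. The calls of transcript use therefore hold a share of false ones that the threshold of 0.05 may understate. Inclusion shares and figures were made in Python 3.11.15 (scipy 1.17.1).

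Named were the PCBP family, in each direction the 15 called genes of largest change (average log2 CPM of at least 2, groups not overlapping), up to 4 called members of each list by smallest p (2 as values where none was called), 6 genes of the day test, 12 variations, list variations past 0.20 and 8 genes of transcript use. Other list members are given from the list counts. The groups, lists and rules were chosen with earlier results of these data known. Alternatives were other libraries in the fit, DESeq2 1.42.0, 2 other scalings, effective length, no filter, GC correction, hairpin number as a block and each library left out.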

Additional observations from a re-analysis of the deposited data

Results flagged for a closer look

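The difference between the PCBP2 and PCBP1 knockdowns was not the same at Day 2 as at Day 0 for 37 of the named genes, by the test of the change between days in the 12 knockdown libraries (edgeR quasi-likelihood, adjusted p under 0.05). Over all genes this test called 392 of 17030 (2.3%). Most of the 37 genes were named for their Day 2 difference, which is part of the change tested. Another 6 (Pebp1, Urb2, Eid1, Ints14, Dgkz and Arhgap45) met the rule of the smallest p in this same test. The count of 37 is therefore a description of the named genes and not a result about them. Values are the Day 2 log2 fold change (PCBP2 over PCBP1 knockdown) minus that of Day 0.

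The difference moved down between the days for genes with lower levels in the Day 2 PCBP2 knockdown. The changes were -2.09 for Il7r, -1.89 for Trdc, -1.68 for Reps2, -1.62 for Gstt1, -1.50 for Foxp1, -1.36 for Pebp1, -1.29 for Abca8b and -1.25 for Aldh1a1. They were -1.18 for Eid1, -1.15 for Ints14, -1.08 for Grap2, -1.04 for Stat5b, -0.96 for Tspoap1, -0.95 for Arhgap45, -0.94 for Eno1 and -0.88 for Dgkz. The cell-cycle genes Ttk, Rfc3, Mcm3 and Top2a changed by -0.83, -0.82, -0.71 and -0.70, the megakaryocyte tubulin gene Tubb1 by -0.75 and Ldha by -0.71.

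The difference moved up by 1.93 for Hist1h2bg, 1.46 for Kdr, 1.44 for Slc35f5, 1.29 for Twsg1, 1.23 for Hba-a2 and 1.22 for A930006K02Rik. It moved up by 1.18 for Tspan31, 1.13 for Meg3, 1.09 for Dcbld2, 1.04 for Tmem184b, 1.03 for Urb2, 0.86 for Chac1, 0.81 for Atf3, 0.64 for Tspo2 and 0.61 for Hspa9. Hist1h2bg was not tested at Day 0, where it was at 0.101 to 0.133 CPM with PCBP2 knockdown and 0.145 to 0.188 CPM with PCBP1 knockdown, so its change rests on a Day 0 difference of very few reads. Hist1h2bg and Hba-a2 have near-identical copies among which reads may be divided.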

How the results depend on the processing

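Compared with 534 genes higher and 511 lower, the counts were 273 and 246 with the 9 libraries of Day 2, 846 and 1312 with all 18 libraries, 247 and 283 with effective length as an offset, and 733 and 885 with no filter on low counts. DESeq2 gave 622 and 595. Leaving out 1 library gave 141 to 839 genes higher and 107 to 976 lower. Pcbp1, not called with the 6 libraries, was called with 9 libraries (log2 2.65, adjusted p = 0.0163), 18 libraries (2.64, 0.00486), DESeq2 (2.65, 3.76e-05) and the GC trend removed (2.62, 0.0468), and its value ran from 2.27 to 3.08 with 1 library left out. The 392 genes of the day test became 263 with 18 libraries and 49 to 1744 with 1 library left out. Transcript use gave 27 genes in place of 97 when transcripts under 10% of their gene were dropped and 105 to 142 with 1 library left out. Splicing variations numbered 6877 at 0.10 and 201 at 0.30, against 1157. The cause of these shifts was not tested.

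Hairpin numbers did not pair the libraries: same-numbered deviations correlated at 0.04, -0.08 and 0.07, and not every library correlated best with its own number. With hairpin number as a replicate block, 493 genes were higher and 425 lower (482 and 399 with the GC trend removed too), 437 genes passed the day test and 67 the transcript test. The block cannot be used for the pooled E(PSI).

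Over 1424 values of the 89 named genes in 16 alternatives, none reversed, 180 lost a call and 14 gained one. All 6 fits without a library leave 1 group with 2 libraries.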

Other observations

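Gene classes outside the lists were looked at after the values were seen. Genes with a Hist symbol, 55 of 64 histone genes tested, stood out: 30 were called higher with PCBP2 knockdown and none lower (edgeR adjusted p under 0.05), against 3.64% and 3.48% of all genes, with a median log2 fold change of 0.77. Their share of the reads was 0.197%, 0.169% and 0.2% with PCBP2 hairpins 1, 3 and 4, against 0.143%, 0.147% and 0.128% with PCBP1 hairpins 1, 3 and 4 and 0.155%, 0.168% and 0.188% in the controls. The PCBP2 and PCBP1 libraries did not overlap, and every PCBP1 library was below every control. Replication-dependent histone mRNAs lack a poly(A) tail and belong to S phase. The median log2 fold change of the DNA replication list was -0.49. In the Day 0 libraries the Hist share was 0.00431% to 0.00571%. There the median replication gene was 1.579 to 1.836 log2 units above its mean in the Day 2 knockdown libraries. The cause of the Hist difference was not tested. Of the 9 histone genes with other symbols, variants such as H2afz, H2afx and H3f3b, 1 was called higher (H2afj, log2 0.55) and none lower. The Hist copies are nearly identical, so the counts of single genes are uncertain.

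Noncoding genes also lay to 1 side. Of 2066 long noncoding genes 112 (5.42%) were higher and 25 (1.21%) lower, with a median of 0.16, and of 56 small nucleolar RNA genes 11 were higher and none lower, with a median of 0.48. Among 11917 protein-coding genes 393 (3.3%) were higher and 473 (3.97%) lower, with a median of -0.03. Long noncoding genes took 2.24% to 2.38% of the reads with PCBP2 knockdown, 1.97% to 2.19% with PCBP1 knockdown and 2.00% to 2.36% in the controls.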
